A study of Mus musculus with 141 samples.

Results

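Transcripts of 10 genes that build triglyceride or supply its glycerol backbone were followed across inguinal fat (iWAT) of inbred mice. The genes are *Dgat1*, *Dgat2*, *Mogat1*, *Mogat2*, *Gpam*, *Agpat2*, *Lpin1*, *Pck1*, *Gpd1* and *Aqp7*. They were taken by name, and all 10 were found by Ensembl identifier among the 36558 genes of the deposited tables. The mice belong to the Hybrid Mouse Diversity Panel (HMDP), a set of inbred and recombinant inbred strains, and the fat is labelled as subcutaneous adipose. All of them ate chow until 8 weeks of age and then a diet rich in fat and sucrose (HF/HS) for 8 weeks, and were killed after a 4-hour fast, so no group on chow is available for comparison. RNA-seq was available as 67 female and 74 male libraries of 82 strains, and each strain gave at most 1 library per sex. For 59 strains, called matched strains here, a female and a male library exist.

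By the prefix of the strain name, the panel falls into 5 families. BXD strains, derived from C57BL/6J and DBA/2J, gave 32 female and 34 male libraries. Among them is BXD24/TyJ-Cep290<rd16>/J, whose name gives the rd16 allele of *Cep290*, with a library of each sex. AXB/BXA strains, derived from A/J and C57BL/6J, gave 9 and 11. AXB19/PgnJ, AXB19a/PgnJ and AXB19b/PgnJ share a line number in their names, and each was counted as a strain. Whether these strains are independent of each other was not tested. CXB strains gave 3 and 3, BXH strains gave 2 and 3, and the remaining classical inbred strains gave 21 and 23. The labels do not say whether a library came from 1 mouse or from several. A second library of the same sex and strain was not analysed here, so the spread within 1 strain and sex was not measured.

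Triglyceride is assembled on glycerol-3-phosphate. A first fatty acid is added by glycerol-3-phosphate acyltransferase (*Gpam*), a second by acylglycerophosphate acyltransferase (*Agpat2*), the phosphate is removed by lipin (*Lpin1*), and the last fatty acid is added by the diacylglycerol acyltransferases (*Dgat1*, *Dgat2*). Monoacylglycerol acyltransferases (*Mogat1*, *Mogat2*) reach diacylglycerol without glycerol-3-phosphate. Fat cells make glycerol-3-phosphate through glycerol-3-phosphate dehydrogenase (*Gpd1*), from glucose or from pyruvate and lactate. The route from pyruvate and lactate, named glyceroneogenesis, also needs phosphoenolpyruvate carboxykinase (*Pck1*). The channel *Aqp7* carries glycerol across the membrane of fat cells.

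Libraries held from 6269154 to 78562648 estimated counts, with a median of 30233245. Summed over *Adipoq*, *Plin1*, *Plin4*, *Cidec*, *Fabp4* and *Lipe*, the adipocyte markers ran from 5525 to 64356 TPM, so fat cells were present in every library. In 3 libraries the Y-linked genes went against the label: the male-labelled NZW/LacJ library and the female-labelled BXD34/TyJ and BXD69/RwwJ libraries. The BXD34/TyJ library was also the shallowest and held the lowest adipocyte marker sum. In the matched strains the lowest sum, 6648 TPM, was in the female AXB12/PgnJ library, whose macrophage marker sum of 5980 TPM was the highest of all libraries. Gene levels over each sex, sex differences and likenesses that these 4 libraries change are also given without some or all of them. Marker sums and gene levels within families include them. No 2 libraries agreed within sampling noise.

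Levels of the 10 genes spanned more than 2 orders of magnitude in TPM, a share of all transcripts in a library that takes transcript length into account and allows genes to be compared. *Pck1* was the most abundant, with 976.6 TPM as the median of the female libraries (85.7 to 1905) and 1143 TPM in males (370 to 2374). *Dgat2* followed at 565 TPM in females (44.2 to 1493) and 759 TPM in males (168 to 1962). *Gpd1* had a median of 406 TPM in females (29.1 to 1220) and 467 TPM in males (222 to 796). These 3 genes took the top place in turn: *Pck1* was the highest of the 10 in 53 of 67 female and 46 of 74 male libraries, *Dgat2* in 12 and 27, and *Gpd1* in 2 and 1.

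*Agpat2* stood at 299 TPM in females (24.9 to 789) and 317 TPM in males (111.5 to 769). *Dgat1* had nearly the same median in both sexes, 125.2 TPM in females (8.39 to 231) and 123.7 TPM in males (65.7 to 220). *Aqp7* was at 115 TPM in females (22.5 to 212) and 156 TPM in males (48.4 to 254). The order of the medians of *Dgat1* and *Aqp7* turned between the sexes. *Dgat1* was the higher of this pair in 46 of 67 female libraries and *Aqp7* in 62 of 74 male libraries. The median log2 ratio of the higher to the lower gene was 0.19 (SD 0.59 over libraries) in females and 0.29 (SD 0.41) in males. In both sexes the median ratio was smaller than this spread over libraries, and the order of the pair was not tested.

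*Lpin1* had a median of 50.2 TPM in females (8.06 to 105.3) and 68.7 TPM in males (27.97 to 126.002). *Gpam* was at 40.6 TPM in females (2.40 to 90.7) and 29.7 TPM in males (16.7 to 53.9), and it was the only one of the 10 that was higher in the female library of most matched strains. *Mogat1* had 18.2 TPM in females (0.797 to 46.9) and 24.7 TPM in males (11.18 to 63.3). *Mogat2* was the least abundant and the most variable member, at 2.90 TPM in females (0.190 to 18.3) and 3.86 TPM in males (0.0856 to 11.6). The BXD34/TyJ library gave the lowest female value of 7 members. Without all 4 libraries named above, the female minimum was 75.5 TPM for *Dgat1*, 148 TPM for *Dgat2*, 391 TPM for *Pck1*, 80.6 TPM for *Agpat2*, 76.9 TPM for *Gpd1*, 37.4 TPM for *Aqp7*, 21.3 TPM for *Lpin1*, 22.7 TPM for *Gpam* and 6.24 TPM for *Mogat1*. The female maximum of *Dgat2* was then 1297 TPM, and the male minimum was 12.2 TPM for *Mogat1* and 58.5 TPM for *Aqp7*. The other extremes were the same, and the female median of *Dgat2* moved from 565 to 567 TPM.

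**Figure D1:**
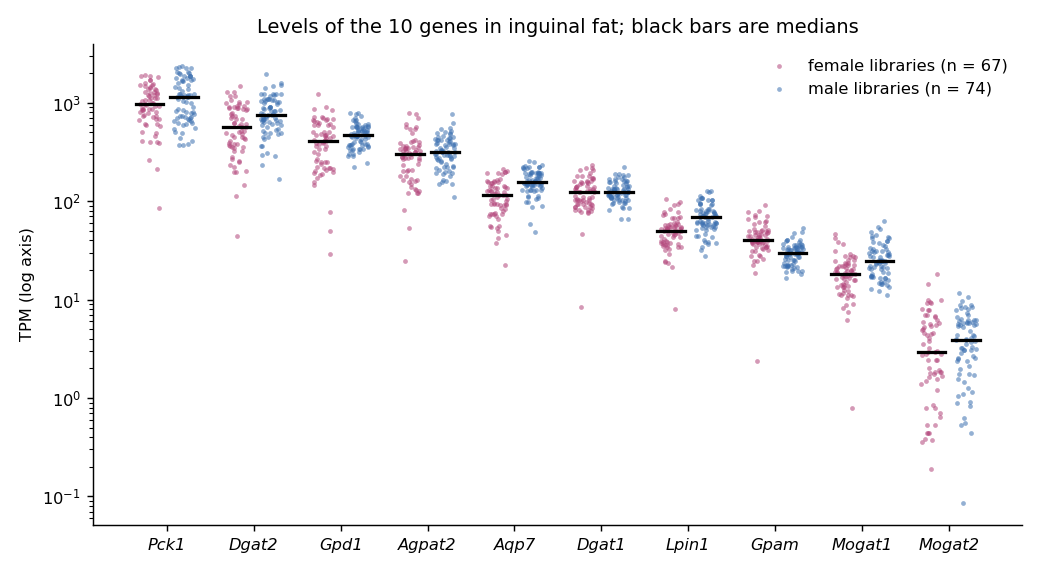
TPM (log axis) of the 10 genes in each female (n = 67) and male (n = 74) library, with black bars at the medians. *Pck1* lies highest with medians of 976.6 and 1143 TPM, *Mogat2* lowest with 2.90 and 3.86 TPM, and the sexes overlap for every gene, also for *Gpam* with medians of 40.6 TPM in females and 29.7 TPM in males.

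Neighbours in this order were not equally far apart. In females *Lpin1* exceeded *Gpam* in 47 of 67 libraries, with a median log2 ratio of 0.14, smaller than its SD of 0.52 over libraries. In males *Lpin1* exceeded *Gpam* in 73 of 74 libraries, and it was *Gpam* and *Mogat1* that lay close, with a median log2 ratio of 0.19 and an SD of 0.63. *Mogat1* exceeded *Mogat2* in every library of both sexes. *Dgat2* exceeded *Dgat1* in every library too, by a median of 4.64 times in females and 6.18 times in males.

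The first comparison asks whether females and males of the same strain differ. *Gpam*, the enzyme of the first acylation step, was higher in females, while 7 of the 10 genes were lower in females: *Aqp7*, *Dgat2*, *Mogat1*, *Lpin1*, *Gpd1*, *Agpat2* and *Pck1*. In bulk tissue fewer cells of a type and less RNA per cell cannot be told apart. Counts of the 59 matched strains were tested with edgeR (quasi-likelihood F) in a model of strain plus sex, and genes were called at a Benjamini-Hochberg adjusted p under 0.05 over all 16765 genes tested. Of all genes tested, 29.7% were lower and 28.4% higher in females at that threshold, so a difference between the sexes is common among genes in this fat. The median log2FC (female minus male) was -0.46 over the 10 genes and 0.01 over all genes tested. Fold changes are estimates of this model and can differ from the ratio of the mean CPM values given beside them. For *Agpat2*, *Gpd1* and *Mogat2* the model gave a larger difference than the means.

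*Gpam* measured 198 ± 79.4 CPM in females and 138.04 ± 43.4 CPM in males (counts scaled to library size by TMM, mean ± SD, n = 59). Its log2FC was 0.48 ± 0.09 (SE; edgeR adjusted p = 5.92e-06), a 1.40-fold higher level in females, and the female library had the higher TPM in 54 of 59 strains. Within strains the log2 ratio of female to male TPM ran from -1.12 in AXB12/PgnJ to 1.68 in I/LnJ with a median of 0.58. In 57 of 59 strains this ratio lay above the median ratio of the other 9 genes, and in 36 strains it was the highest of all 10. The 2 sexes overlapped in level, with 16.7 to 53.9 TPM in males and, without the 4 libraries that stand apart, 22.7 to 90.7 TPM in females. Among the male-labelled libraries NZW/LacJ, whose Y-linked genes go against its label, had 47.5 TPM of *Gpam*, and 2 male-labelled libraries were above it.

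The transcript of the glycerol channel *Aqp7* was lower in females. It had 285 ± 82.7 CPM in males and 189 ± 81.9 CPM in females (n = 59), with a log2FC of -0.67 ± 0.10 (edgeR adjusted p = 4.04e-08), and it was lower in the female library of 49 of 59 strains. NZW/LacJ, whose male-labelled library goes against its label, gave the highest within-strain log2 ratio of both *Aqp7* (1.79) and *Mogat1* (1.14).

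At the last acylation step the 2 enzymes behaved differently. *Dgat2* was 1.57-fold lower in females (log2FC -0.65 ± 0.13, edgeR adjusted p = 3.27e-05), with means of 1047 ± 594 (females) and 1520 ± 658 CPM (males) and a lower female value in 46 of 59 strains. *Dgat1* averaged 126.7 ± 55.4 (females) and 138.6 ± 45.8 CPM (males), and its log2FC of -0.18 (95% interval -0.35 to -0.01) did not pass the threshold (edgeR adjusted p = 0.0711). It was lower in the female library of 32 strains and higher in 27. The ratio of *Dgat2* to *Dgat1* was lower in the female library in all but 12 of 59 strains, with a median of 0.727 times the male ratio.

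Of the monoacylglycerol acyltransferases, *Mogat1* had 18.7 ± 8.78 CPM in males and 12.5 ± 6.15 CPM in females (log2FC -0.59 ± 0.11, edgeR adjusted p = 4.88e-06). *Mogat2* averaged 5.54 ± 5.64 (females) and 6.14 ± 4.06 CPM (males). Its log2FC of -0.45 (95% interval -0.84 to -0.05) missed the threshold (edgeR adjusted p = 0.0526), and its within-strain log2 ratios were the widest of the 10, from -4.04 in AXB12/PgnJ to 3.99 in AXB19b/PgnJ.

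The transcripts of *Lpin1* and *Agpat2*, enzymes of the middle steps, were lower in females. *Lpin1* was 1.48-fold lower (203 ± 85.1 CPM in females, 293 ± 98.2 CPM in males, log2FC -0.57 ± 0.09, edgeR adjusted p = 2.84e-07), in 48 of 59 strains. *Agpat2* was 1.28-fold lower (315 ± 238 CPM in females, 355 ± 187 CPM in males, log2FC -0.36 ± 0.14, edgeR adjusted p = 0.0229), in 36 of 59 strains. The ratio of *Agpat2* to *Gpam* was lower in the female library in all but 8 strains, at a median of 0.532 times the male ratio.

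Lower in females were also the transcripts of *Gpd1* and *Pck1*, which act in the supply of glycerol-3-phosphate. *Gpd1* averaged 1064 ± 845 (females) and 1214 ± 454 CPM (males) (log2FC -0.47 ± 0.15, edgeR adjusted p = 0.00611), and was lower in 40 of 59 female libraries. For *Pck1* the log2FC was -0.30 ± 0.13 (edgeR adjusted p = 0.0425), with 37 of 59 strains lower in the female library. The ratio of *Pck1* to *Gpd1* split the strains nearly evenly, with 32 of 59 higher in the female library.

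**Figure D2:**
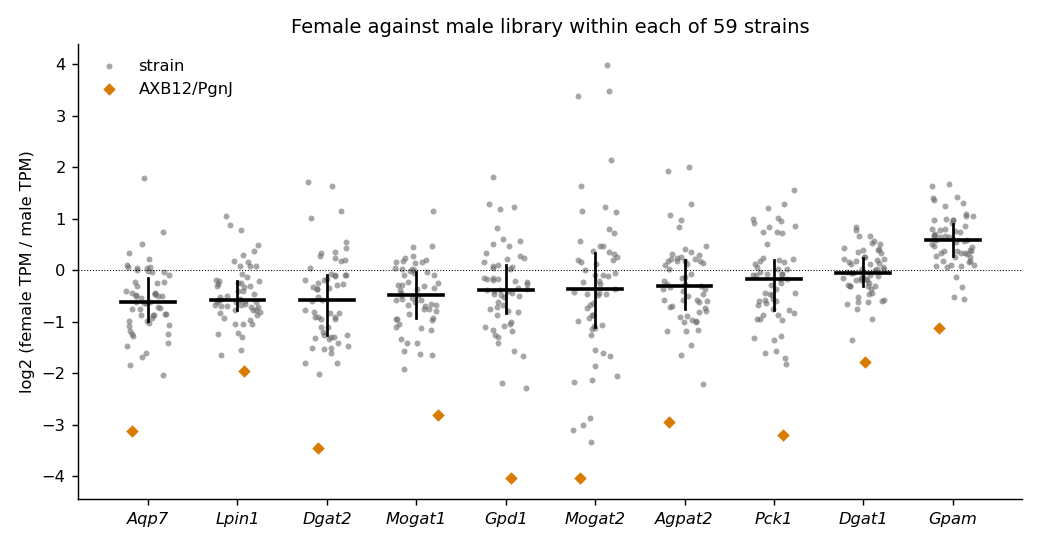
Log2 ratio of female to male TPM within each of 59 strains for the 10 genes, with the median (horizontal bar) and quartiles (vertical bar), and AXB12/PgnJ as diamonds. For *Gpam* 54 of 59 strains lie above 0, and for *Aqp7* 49 of 59 lie below it. AXB12/PgnJ is the lowest strain for all 10 genes.

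AXB12/PgnJ gave the lowest ratio of all 10 genes. Without that strain 6 of the 10 passed as lower and *Gpam* alone as higher, and *Pck1* no longer passed (log2FC -0.26, edgeR adjusted p = 0.0625). Of all genes 4913 were then lower and 4675 higher. Without NZW/LacJ 8 were lower, *Mogat2* being added (log2FC -0.49, edgeR adjusted p = 0.0308), and so were 5165 of all genes. *Dgat1* and *Mogat2*, which missed the threshold above, passed as lower under some alternatives. With DESeq2 both did (adjusted p = 0.0431 and 0.016), as with the mitochondrially encoded genes left out (edgeR adjusted p = 0.038 and 0.0404). In each of these fits 9 of the 10 were lower, and so were 5299 and 5590 of all genes. *Dgat1* alone was added with limma-voom (adjusted p = 0.0374) and *Mogat2* alone with RLE size factors (edgeR adjusted p = 0.0478). The genes called lower over all genes were 4984 with limma-voom and 5140 with RLE size factors. The pairing by strain also mattered: with no replicate block for strain 5 of the 10 passed as lower and 1 as higher. In that fit 4105 of all genes were lower and 4086 higher. *Agpat2* (edgeR adjusted p = 0.375) and *Gpd1* (edgeR adjusted p = 0.305) no longer passed there.

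Fat cell markers moved with these differences. All 6 adipocyte markers were lower in females (median log2FC -0.60), and their summed TPM was lower in the female library of 48 of 59 strains, with 6648 to 62339 TPM (median 28913) in females and 12364 to 63599 TPM (median 41510) in males. All 9 mammary epithelium markers were higher in females, with a summed level of 98.1 to 4572 TPM (median 628) against 0.380 to 554 TPM (median 3.47). The male-labelled NZW/LacJ library, whose Y-linked genes go against its label, gave both the highest male mammary sum and the lowest male adipocyte sum. All 5 macrophage markers were lower, and their sum was lower in the female library of 35 of 59 strains. None of the 7 lymphocyte markers passed (median log2FC 0.53), though their sum had a median of 215 TPM in females and 14.6 TPM in males.

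With the mean log2 CPM of the adipocyte markers as a covariate in the same model, the picture for the 10 genes changed. *Gpam* remained higher in females and its log2FC grew to 0.75 ± 0.10 (edgeR adjusted p = 1e-08). *Pck1* and *Dgat1* turned to higher in females (log2FC 0.30 and 0.24, edgeR adjusted p = 0.0177 and 0.00255). *Lpin1* and *Aqp7* stayed lower, at log2FC -0.21 and -0.10 (edgeR adjusted p = 0.0485 and 0.0415). *Dgat2* (log2FC -0.06), *Mogat1* (-0.08), *Gpd1* (-0.02), *Agpat2* (0.04) and *Mogat2* (0.26) did not pass. Among all genes 24.5% were lower and 24.8% higher in this fit. Part of the marker list, such as the lipid droplet proteins, belongs to triglyceride storage itself, and whether the covariate removes cell number or the activity of fat cells was not tested.

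**Figure D3:**
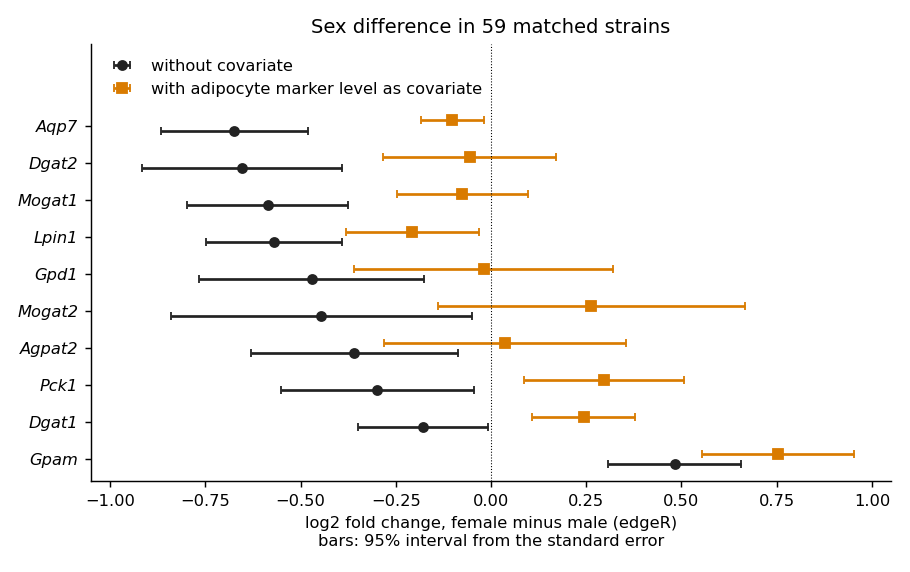
Log2FC (female minus male, edgeR) of the 10 genes in 59 matched strains with 95% intervals, without (black circles) and with (orange squares) the adipocyte marker level as a covariate. *Gpam* is to the right of 0 in both fits, at 0.48 and 0.75, and *Pck1* moves from -0.30 to 0.30.

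Scaling changed how many genes of the tissue were called in each direction. With library totals in place of TMM the median log2FC of all genes rose to 0.12, 16.5% of genes were lower and 44.2% were higher in females, and 5 of the 10 genes passed as lower and 1 as higher. *Gpam* had a log2FC of 0.59 at that scaling, *Agpat2* (adjusted p = 0.0747) and *Pck1* (adjusted p = 0.134) were lost, and the direction of each of the 10 genes was kept.

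Other genes of the pathway were read from a list of 37, of which 36 matched a gene in the tables and 35 passed the filter on low counts. In females 18 of the 35 were lower and 7 were higher, with a median log2FC of -0.16, against the 29.7% lower and 28.4% higher of all genes given above. With the adipocyte covariate 2 were lower and 7 higher, and with library totals 14 were lower and 12 higher. The 4 with the largest decrease were *Fitm2* (log2FC -0.56), which takes part in lipid droplet budding, *Acsl1* (-0.52), which activates fatty acids, *Cebpa* (-0.43), a transcription factor of fat cells, and *Bscl2* (-0.41), which encodes seipin. With the adipocyte covariate these 4 lay between -0.07 and 0.05 and none passed. Largest among the increases were the phosphatase *Plpp2* (log2FC 0.65), the glycerol channel *Aqp3* (0.42), *Acsl3* (0.36), another fatty acid activating enzyme, and *Gpd2* (0.36), the mitochondrial glycerol-3-phosphate dehydrogenase.

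*Plpp2* and *Acsl3* remained higher with the covariate (log2FC 0.73 and 0.44), *Aqp3* turned to -0.33 without passing (edgeR adjusted p = 0.0924), and *Gpd2* no longer passed (edgeR adjusted p = 0.158). Across the female libraries *Plpp2* rose with the mammary markers (Pearson's r = 0.65), as did *Acsl3* (r = 0.59), and the part of mammary epithelium in these increases was not tested. Of the counterparts of the 10 genes, mitochondrial *Pck2* was higher in females (log2FC 0.30, edgeR adjusted p = 3.35e-10, 45 of 59 strains), against the lower cytosolic *Pck1*. With the covariate *Pck2* stayed higher (log2FC 0.23, edgeR adjusted p = 2.01e-05), and *Pck1* was then higher too (log2FC 0.30). *Pck2* also rose with the mammary markers across females (r = 0.51), whose part was not tested. *Gpat3*, another glycerol-3-phosphate acyltransferase, was lower (log2FC -0.30, edgeR adjusted p = 0.00595), against the higher *Gpam*, and turned to higher with the covariate (log2FC 0.20, edgeR adjusted p = 0.00773). Glycerol kinase *Gk* had a log2FC of -0.21 and did not pass (edgeR adjusted p = 0.0676). *Pparg*, the nuclear receptor that drives fat cell differentiation, was lower (log2FC -0.38, edgeR adjusted p = 0.000251) and had a log2FC of 0.11 with the covariate, which did not pass (edgeR adjusted p = 0.107).

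Whether the sex difference depended on the family was tested as the interaction of sex with BXD membership. None of the 10 genes passed between the 26 BXD and the 33 other matched strains (edgeR, smallest unadjusted p among them 0.0983). Of all genes 0% passed, also with limma-voom and with limma on log2(TPM + 1), while 315 genes had an unadjusted p under 0.05. With 1 library per sex and strain, the test cannot show that such a difference is absent. *Gpam* had a median log2 ratio of 0.66 in BXD and 0.38 in the others, a difference of 0.29 in the fit with an SE of 0.18. For *Mogat1* the medians were -0.41 and -0.58, a fitted difference of 0.36 with an SE of 0.21.

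The next question is how far strains differ beyond the pair of libraries each contributes. In an F test of all strain terms in the sex model, 5 of the 10 genes passed: *Mogat2* (edgeR adjusted p = 0.00297), *Agpat2* (0.0184), *Dgat1* (0.0227), *Mogat1* (0.0261) and *Pck1* (0.0498). Of all genes tested 71% passed, which is 11906 genes. *Lpin1* (0.0574), *Aqp7* (0.099), *Dgat2* (0.108), *Gpd1* (0.169) and *Gpam* (0.314) did not pass. Without AXB12/PgnJ 8 of the 10 passed, all but *Gpam* and *Gpd1*, and so did 12947 of all genes. With the adipocyte covariate all of the 10 but *Dgat2* and *Gpam* passed, and 13395 of all genes. With limma-voom 1 of the 10 passed, and 10289 of all genes.

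*Mogat2* showed the widest range. SM/J was the lowest of the 59 strains in both sexes, with 0.190 TPM in the female and 0.0856 TPM in the male library, from 8 and 4 estimated counts. *Dgat2*, the next gene on the chromosome, was not low there, at 482 TPM (rank 27 of 59 from the lowest) in the female and 909 TPM (rank 39) in the male. At the other end BXA8/PgnJ had 14.5 TPM in the female and 8.31 TPM in the male library, and BXA7/PgnJ had 9.90 and 11.6 TPM. *Mogat2* was below 1 TPM in 14 female and 8 male libraries, while outside BXD34/TyJ no other member fell under 6.24 TPM.

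Some strains were extreme for several of the genes. In 129X1/SvJ *Dgat2* was the highest of the matched libraries in both sexes (1297 TPM in the female, 1962 TPM in the male), and *Dgat1*, *Mogat1* and *Lpin1* were among the 5 highest strains by the mean of both sexes too, yet *Gpam* was among the 5 lowest. In BXD43/RwwJ *Pck1* and *Gpd1* stood at opposite ends by strain mean, more so in the female library. Among 59 strains it ranked 3 from the highest for *Pck1* in females and 8 in males. For *Gpd1* it ranked 2 from the lowest in females and 13 in males. Its *Pck1* was the highest strain mean (1880 TPM in the female, 1996 TPM in the male) and its *Aqp7* also, whereas *Agpat2* and *Lpin1* were the lowest, *Gpd1* the second lowest (76.9 and 373 TPM), and *Dgat2* among the 5 lowest. SJL/J had 5 genes among the lowest 5 strain means (*Dgat1*, *Dgat2*, *Mogat1*, *Pck1* and *Aqp7*) and *Gpam* and *Gpd1* among the highest. Its adipocyte marker sums were low, at 8995 TPM in the female and 18961 TPM in the male, while those of BXD43/RwwJ, 46044 and 54621 TPM, were above both medians. Lowest for *Pck1* was BXD60/RwwJ, at 396 and 379 TPM, and for *Gpam* CXB11/HiAJ, at 28.2 and 16.7 TPM.

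Levels in females and males of a strain went together only weakly. Over the 59 strains *Mogat2* had Pearson's r = 0.41 (log2 CPM, permutation p = 0.00163, adjusted p = 0.0058 over all genes) and Spearman's rho = 0.44 (permutation p = 0.00056, adjusted p = 0.00272). Without SM/J and AXB5/PgnJ, the strains with the female levels farthest from the median, r was 0.30. By r it was the only one of the 10 to pass, against 52.2% of all genes, and by rho *Aqp7* passed as well (rho = 0.29, permutation p = 0.0254, adjusted p = 0.0477), against 54% of all genes. The median r was 0.22 over the 10 genes and 0.30 over all genes.

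*Gpam* had the lowest value of the 10, r = 0.00 (permutation p = 0.987, adjusted p = 0.988) and rho = 0.06 (permutation p = 0.658, adjusted p = 0.685), with r = 0.03 without AXB12/PgnJ and AXB13/PgnJ. Only 3.1% of all genes tested had a lower r. For the remaining 8 genes r ran from 0.12 (*Gpd1*) to 0.25 (*Dgat1*). With 1 library per sex and strain, differences between libraries of a strain and differences between the sexes in strain effects cannot be told apart.

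**Figure D4:**
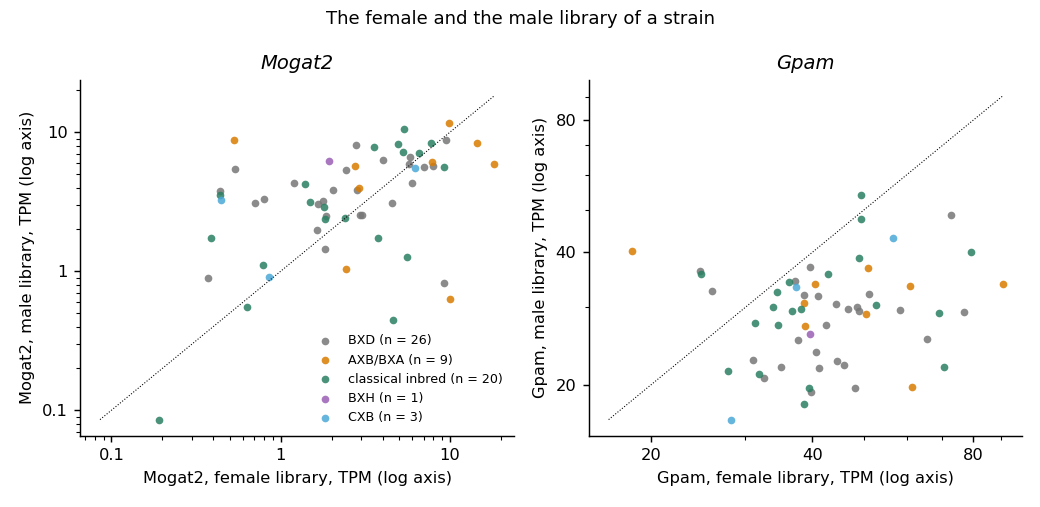
TPM of *Mogat2* (left) and *Gpam* (right) in the female (horizontal axis) and the male (vertical axis) library of each of 59 matched strains, on log axes, coloured by family, with the line of equal levels dotted. *Mogat2* of SM/J lies lowest in both sexes, and 54 of 59 *Gpam* points lie below the line, where the female level is the higher, with r = 0.00 between the sexes.

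Families were compared within each sex by 3 contrasts in a fit of all 5 families. None of the 10 genes passed in any of them with edgeR, and 0 passed with DESeq2, limma-voom or limma on log2(TPM + 1). At an unadjusted p under 0.05 edgeR found *Mogat2* in both female contrasts with AXB/BXA and *Mogat1* in both male contrasts with BXD. Of all genes, BXD minus classical inbred called 12.4% in females and 8.63% in males, AXB/BXA minus classical inbred 2.69% and 1.92%, and BXD minus AXB/BXA 2.27% and 2.46%. The largest difference was that of *Mogat2*, higher in AXB/BXA than in classical inbred strains by a log2FC of 1.22 ± 0.50 in females (edgeR adjusted p = 0.206) and 0.63 ± 0.38 in males (adjusted p = 0.488). Its female levels were 0.531 to 18.3 TPM (median 7.82, n = 9) in AXB/BXA, 0.190 to 9.25 TPM (median 3.55, n = 21) in classical inbred and 0.354 to 9.54 TPM (median 2.88, n = 32) in BXD strains, so the groups overlapped. The lowest AXB/BXA value was that of AXB12/PgnJ and the lowest BXD value that of BXD34/TyJ, both among the libraries that stand apart. In males the medians were 5.90, 2.89 and 3.86 TPM.

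The smallest adjusted p was that of *Mogat1* in males, lower in BXD than in AXB/BXA strains by a log2FC of -0.58 ± 0.20 (edgeR adjusted p = 0.0997), with medians of 23.3 and 31.2 TPM. Without AXB12/PgnJ *Mogat2* reached 1.38 ± 0.50 in females (adjusted p = 0.194). In the small families, described without a test, *Mogat2* of the 3 CXB strains ran from 0.443 to 6.25 TPM in females and 0.917 to 5.57 TPM in males, with CXB11/HiAJ highest in both, and the 3 male BXH libraries ran from 1.55 to 6.18 TPM.

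Across libraries of 1 sex the 10 genes mostly rose and fell together, more so in females. All 45 pairs had a Pearson's r of log2 CPM above 0 in females (median 0.59, n = 67) and 41 of 45 in males (median 0.39, n = 74). Much of this went with the adipocyte markers, with which *Aqp7* had r = 0.92 in females and 0.87 in males, and *Gpam* 0.44 and 0.17. With the adipocyte marker level removed by regression the medians fell to 0.37 and 0.15. These values describe libraries that share strains between the sexes, and no test was made on them.

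The strongest pair was *Agpat2* and *Gpd1*, with r = 0.88 (rho = 0.86) in females and 0.82 (rho = 0.80) in males, and 0.86 and 0.79 with the adipocyte level removed. Their levels also rose with the brown or beige adipocyte markers (r = 0.70 and 0.64 in females), whose part in the pair was not tested. *Dgat2* and *Mogat2* are related enzymes and lie 36364 bases apart on the minus strand of chromosome 7 (GRCm38, chr7:99153658-99182719 and chr7:99219084-99238619). They had r = 0.80 (rho = 0.84) in females and 0.70 (rho = 0.80) in males, and 0.61 and 0.66 with the adipocyte level removed. *Pck1* and *Mogat1* had r = 0.76 (rho = 0.76) in females and 0.66 (rho = 0.68) in males. Without the 4 libraries that stand apart these 3 pairs kept r between 0.66 and 0.88.

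*Pck1* and *Mogat2* went opposite ways in males, with r = -0.38 (rho = -0.39), and had r = 0.20 (rho = 0.16) in females. With the adipocyte level removed the values were -0.60 and -0.35, negative in both sexes. For *Pck1* and *Dgat2* they were -0.53 in males and -0.11 in females, against -0.16 and 0.41 before. The difference between the sexes was not tested.

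**Figure D5:**
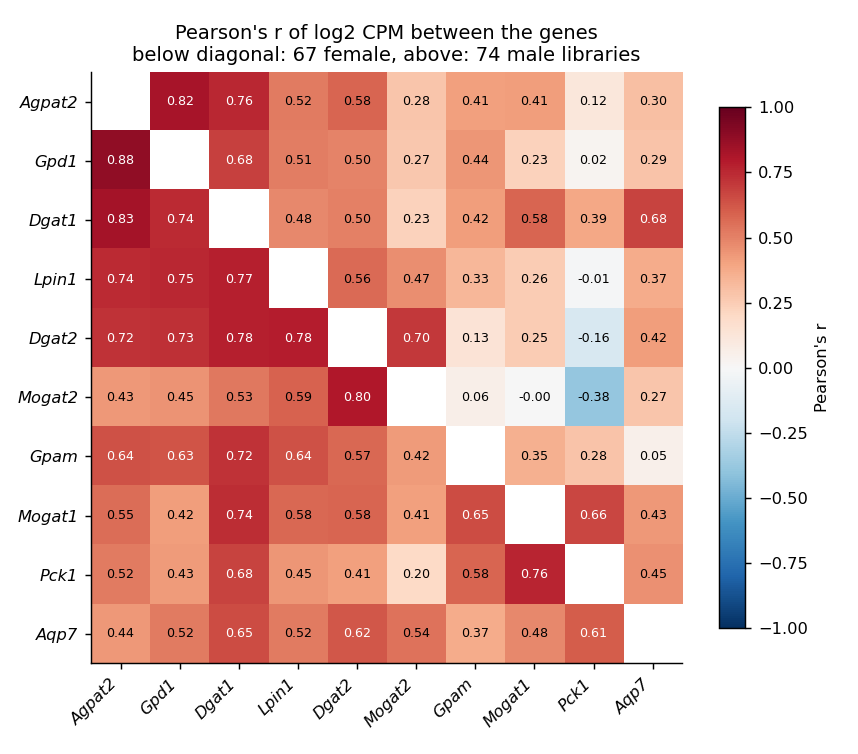
Pearson's r of log2 CPM between the 10 genes, below the diagonal over 67 female and above it over 74 male libraries. *Agpat2* and *Gpd1* are the strongest pair in both sexes (0.88 and 0.82), and *Pck1* with *Mogat2* is the lowest in males (-0.38).

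Promoters are shown for the pair *Pck1* and *Mogat1*, which rose and fell together, and for *Gpam*, which differed between the sexes in the opposite direction to the other genes. They are RefSeq sequences of GRCm38.p6, ending before the annotated start, 5′ to 3′ on the gene's strand: Pck1 at chr2:173152823-173153047 (plus strand), Mogat1 at chr1:78510810-78510990 (plus strand) and Gpam at chr19:55127239-55127488 (minus strand). Capitals mark matches, on either strand, to TTACGTCA (a cAMP response element), TGACGTCA (its palindromic form), CACGTG (E-box), the TATA box TATAAA, the box named CCAAT, or TTGCNNAA (a C/EBP site).
Pck1: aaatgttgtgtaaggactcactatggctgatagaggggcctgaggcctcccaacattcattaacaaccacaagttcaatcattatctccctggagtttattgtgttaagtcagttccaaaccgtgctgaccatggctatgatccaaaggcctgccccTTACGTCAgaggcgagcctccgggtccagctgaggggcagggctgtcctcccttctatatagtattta
Mogat1: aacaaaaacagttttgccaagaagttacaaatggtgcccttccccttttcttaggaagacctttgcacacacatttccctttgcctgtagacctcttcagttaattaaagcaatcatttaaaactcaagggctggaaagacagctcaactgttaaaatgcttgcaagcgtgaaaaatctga
Gpam: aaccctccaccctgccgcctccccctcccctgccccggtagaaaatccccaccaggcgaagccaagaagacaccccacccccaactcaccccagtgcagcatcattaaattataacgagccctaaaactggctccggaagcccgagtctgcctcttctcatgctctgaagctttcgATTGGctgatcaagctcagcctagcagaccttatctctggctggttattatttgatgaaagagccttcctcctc

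*Pck1* held 1 match, TTACGTCA, whose first base lies 93 bases before the RefSeq start, and these letters stand in 0.447% of the 32851 promoters of the table over the 250 bases before the start. *Gpam* held ATTGG, the CCAAT motif on the other strand, found in 33.8% of promoters. The printed *Mogat1* sequence held none of the 6 motifs. It has 181 bases and ends at 78510990, short of the RefSeq start at 78511060. The *Pck1* sequence has 225 bases and ends at 173153047, short of the RefSeq start at 173153073. For both genes the bases between that end and the start were not scanned. The matches are letters in a window and were not measured as sites here. RefSeq lists a second start for *Gpam* at position 55099477 of chromosome 19, and the gene-level counts do not tell the starts apart.

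By likeness of pattern (the smaller of the r over female and over male libraries, among 16755 genes), the 3 genes most like each member were named. *Dgat2* was the third most alike to *Mogat2* (smaller r = 0.70) and *Gpd1* the second to *Agpat2* (0.82). These were the only 2 of 30 places held by one of the 10 genes. *Pck1* was most like *Bag4* (0.80), *Smim19* (0.79) and *Adrb3* (0.79), the adrenergic receptor of fat cells, and *Mogat1* like *Maob* (0.75), *Dnajb2* (0.75) and *Hsd17b10* (0.74). *Dgat2* was most like *Hspb8* (0.85), *Mvk* (0.83) and *Usp5* (0.83). *Lpin1* went with *Hk2* (0.70), a hexokinase that traps glucose, *Abhd15* (0.68) and *Hspb8* (0.67).

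*Dgat1* was most like *Sgta* (0.87), *Psmd4* (0.87) and *Acads* (0.86), *Agpat2* also like *Fam69b* (0.86) and *Mrpl12* (0.82), and *Gpd1* like *Pdhx* (0.86), *Grpel1* (0.85) and *Gm10053* (0.83). *Aqp7* was most like *Tspan12* (0.85), *Prss36* (0.85) and *Fgfrl1* (0.85), and *Mogat2* also like *Tfg* (0.71) and *Agfg2* (0.70). *Gpam* had the loosest likeness, to *Sephs2* (0.62), *Ddhd2* (0.59) and *Ehhadh* (0.57), an enzyme of peroxisomal fatty acid oxidation. Without the 4 libraries that stand apart, 23 of the 30 genes were still among the 3 most alike and 28 among the 10 most alike. The 2 that left were *Adrb3*, which fell to rank 17 for *Pck1*, and *Ehhadh*, which fell to rank 72 for *Gpam* (smaller r = 0.50).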

How the data were processed

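RNA-seq of iWAT was read with kallisto 0.46.1 against the Ensembl release 97 transcriptome (GRCm38) and summed to genes with tximport by the authors, who deposited estimated counts (30.3% of values not whole, rounded here) and TPM. Symbols came from GENCODE release 21 for mouse (35856 of 36558 genes). Groups follow the sex, strain and strain name in the labels, and strains pair the sexes. The study's methods used limma with strain and sex. Here edgeR 4.0.16 (R 4.3.3) quasi-likelihood tests with TMM scaling and edgeR's filter on low counts were used, with Benjamini-Hochberg adjustment over all genes, and limma 3.58.1 and DESeq2 1.42.0 as alternatives. The tests across genes were tested on simulated data. Correlations of the sexes used log2 CPM (prior count 2) and 100000 permutations, whose smallest p is 1e-05. Pathway genes were named as the 4 largest changes per direction past the threshold, plus *Gk*, *Pck2*, *Gpat3* and *Pparg*. Likeness named 3 genes per member. The 10 genes and all lists were chosen with earlier results of these data known. P-values of the fits set a difference against the spread between these libraries. In the matched strains that spread does not separate differences between libraries from sex differences that vary by strain. Intervals cover the fit only. The promoters of *Dgat1*, *Dgat2*, *Mogat2* and *Gpd1* were not analysed here.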

Additional observations from a re-analysis of the deposited data

Results flagged for a closer look

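Among the 9 female AXB/BXA libraries, 2 of the 10 genes had a library far from the others by Dixon's criterion, with 10 combinations examined. Chance alone gives about 1 such case in 20. *Agpat2* was highest in AXB5/PgnJ, at 789 TPM, with the nearest library at 363 TPM. *Aqp7* was lowest in AXB12/PgnJ, at 22.5 TPM, with the nearest at 91.9 TPM. The adipocyte marker sum was 6648 TPM in the female AXB12/PgnJ library, and its part in the low *Aqp7* was not tested.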

How the results depend on the processing

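With 1 library per sex and strain, leaving out a replicate of a group was possible only as leaving out a strain. The sex difference was fitted with the strain as a block, and with no replicate block 5 of the 10 genes passed as lower and 1 as higher. The adipocyte marker level as a covariate left 2 genes lower and 3 higher, and turned the log2FC of *Dgat1* to 0.24, of *Mogat2* to 0.26, of *Agpat2* to 0.036 and of *Pck1* to 0.30. Under the other alternatives (RLE size factors, library totals, DESeq2, limma-voom, limma on TPM, both filters on low counts, mitochondrially encoded genes left out, and without single strains) each of the 10 genes kept its direction. *Dgat1* and *Mogat2* were gained with DESeq2 and without mitochondrially encoded genes (9 of the 10 lower in each), *Dgat1* with limma-voom, and *Mogat2* with RLE size factors and without NZW/LacJ (8 each). *Mogat2* could not be tested with at least 10 counts required in every library. *Pck1* no longer passed with library totals (adjusted p = 0.134), with no filter (0.0553), with limma on log2(TPM + 1) (0.0645) or log2(TPM + 0.1) (0.064), or without AXB12/PgnJ (0.0625). Over all genes, the sex difference called 9739 genes, and from 8092 (at least 10 counts in every library) to 10179 (without NZW/LacJ) under the alternatives, with 4985 lower and 4754 higher against 2772 and 7404 with library totals.

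The strain difference passed for 8 of the 10 genes with the adipocyte covariate, for 8 without AXB12/PgnJ and for 1 with limma-voom. Both of the first were chosen after seeing the data. The correlation of the sexes passed for 3 genes on log2(TPM + 1), for 2 with library totals and for 2 without NZW/LacJ. Of all genes from 8498 (on log2(TPM + 1)) to 9893 (without NZW/LacJ) passed, against 8759 in the main setting. The cause was not tested in any of these.

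The interaction of sex with BXD turned with limma on log2(TPM + 1) for *Dgat1* (-0.031) and *Lpin1* (-0.073), with limma-voom for *Dgat2* (0.011) and without NZW/LacJ for *Dgat2* (0.043). None of the family differences passed. AXB/BXA minus classical inbred in females turned with the adipocyte covariate for *Dgat1* (-0.11), *Agpat2* (-0.19), *Pck1* (-0.13) and *Aqp7* (-0.051), with limma on log2(TPM + 1) for *Dgat1* (-0.077), *Agpat2* (-0.040) and *Pck1* (-0.0036) and with limma-voom for *Agpat2* (-0.021). BXD minus AXB/BXA in females turned without AXB12/PgnJ for *Aqp7* (-0.0032). BXD minus classical inbred in females turned with the adipocyte covariate for *Dgat2* (-0.10), *Mogat2* (-0.29), *Gpam* (-0.063), *Lpin1* (-0.092) and *Gpd1* (-0.077), with limma on log2(TPM + 1) for *Dgat2* (-0.083), *Gpam* (-0.12), *Lpin1* (-0.072) and *Gpd1* (-0.0022), with library totals for *Gpam* (-0.028) and *Lpin1* (-0.024) and without the libraries that go against their label for *Pck1* (0.021). AXB/BXA minus classical inbred in males turned with the adipocyte covariate for *Dgat1* (-0.059), *Dgat2* (-0.014) and *Gpam* (-0.019), with DESeq2 for *Gpam* (-0.0015), with at least 10 counts in every library for *Gpam* (-0.018), with library totals for *Gpam* (-0.039) and without AXB19a and AXB19b for *Gpam* (-0.0042). BXD minus AXB/BXA in males turned with the adipocyte covariate for *Dgat2* (0.0047) and *Aqp7* (0.029). BXD minus classical inbred in males turned with limma on log2(TPM + 1) for *Dgat2* (0.079) and with limma-voom for *Dgat2* (0.070). For BXD minus classical inbred in females, limma on log2(TPM + 1) called 609 of all genes against 2520 with edgeR.

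Depth limits *Mogat2* most, which rests on 8 and 4 estimated counts in SM/J.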

Other observations

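Other genes of the pathway were also counted by role. As a background for these counts, a decrease in females was called for 29.7% of all genes tested, an increase for 28.4%. Once the adipocyte covariate was in the model, the background shares became 24.5% (decrease) and 24.8% (increase). Whether any role departs from its background share was not tested. Of 8 other acyltransferases 6 were lower and 0 higher in females (edgeR), and with the adipocyte covariate 2 were lower and 2 higher. Of 5 other phosphatidate phosphatases 3 were lower and 2 higher, and 0 and 2 with the covariate. Of 7 transcriptional regulators 5 were lower and 0 higher, and 0 and 1 with the covariate. Both genes of lipid droplet formation that were tested were lower, and neither passed with the covariate. Of 6 other genes of glycerol-3-phosphate supply 1 was lower and 2 were higher, and 0 and 1 with the covariate. Of 3 other aquaglyceroporins 0 were lower and 1 was higher, and none passed with the covariate. Of 4 genes of fatty acid activation 1 was lower and 2 were higher, and 0 and 1 with the covariate.

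SWR/J and SJL/J had low adipocyte marker sums in both sexes, at 11495 and 22531 TPM in SWR/J (female and male), and SWR/J was among the 5 lowest strains for *Dgat2*, *Mogat1*, *Mogat2* and *Aqp7*. In the female-labelled BXD69/RwwJ library, whose Y-linked genes go against its label, *Dgat2* was the highest of 67 at 1493 TPM and *Pck1* the third lowest at 264 TPM.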
